A study of Homo sapiens with 6 samples.

Results

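Long noncoding RNAs known from prostate cancer were followed in C4-2 cells with and without a knockout of CDK12. The 10 genes, PCA3, PCGEM1, PCAT1, PCAT14, SCHLAP1, DRAIC, ARLNC1, MALAT1, NEAT1 and PVT1, were chosen by name, and all 10 had an Ensembl identifier among the 62696 gene rows of each count file. C4-2, a human line that descends from LNCaP, models prostate cancer that grows without testicular androgen. The knockout group (CDK12KO, n = 3 libraries) was C4-2 edited with CRISPR-Cas9 to knock out CDK12, and its control (VEC, n = 3 libraries) was C4-2 carrying the vector, labelled wild type. Neither was treated, and both grew in serum-supplemented RPMI. The labels do not say whether the knockout line is a single clone or a pool, nor that the replicates were separate cultures, so p-values reflect only how far these libraries spread, possibly for technical reasons. Clonal or other differences between the lines and the knockout itself cannot be told apart.

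These RNAs fall into a few kinds. PCA3, PCGEM1, PCAT14, SCHLAP1 and ARLNC1 are made largely in prostate tissue, and several of them respond to androgen, the hormone on which most prostate cancers depend. DRAIC and PCAT1 act on growth and signalling, and PVT1 is transcribed beside the MYC oncogene. MALAT1 and NEAT1 are abundant nuclear RNAs of most cell types, located in nuclear speckles and at the core of paraspeckles. CDK12 is a kinase that phosphorylates RNA polymerase II and sustains transcription through long genes. In bulk RNA, fewer cells of a type and less RNA per cell cannot be told apart.

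The libraries held 18333400 to 21590817 reads counted in genes in CDK12KO and 16617644 to 18178467 in VEC. CDK12KO2 stood apart. Its log2 CPM (read counts scaled to the effective size of each library) correlated with those of the other libraries at 0.916 to 0.95, while the other 5 correlated with each other at 0.977 to 0.99. It had the smallest share of reads outside genes (3.62%, against 5.42% to 6.14% in the other CDK12KO libraries and 6.12% to 7.45% in VEC) and the largest share of reads that fell in more than 1 gene (14.4%, against 12.2% in both other CDK12KO libraries and 11.1% to 11.6% in VEC). Results for the tested RNAs are therefore given with all 6 libraries and without CDK12KO2. For single genes of the marker and context lists below, often only the fit without CDK12KO2 is given. With all 6 libraries edgeR called 0 genes of these lists. CDK12 itself had 60.8, 56.9 and 56.5 CPM in CDK12KO and 60.2, 48.0 and 57.1 CPM in VEC (log2 fold change 0.08, edgeR adjusted p = 0.709). A count over the whole gene does not show a disrupted reading frame, so it does not check the labels. Luminal prostate markers summed to 7605 to 10610 CPM in CDK12KO and 8946 to 9038 CPM in VEC, with all 10 genes above 1 CPM on average. With all libraries edgeR called 0 of them. With CDK12KO2 left out, 4 of them fell in edgeR, KLK3, KLK2 and TMPRSS2 among them, and 0 rose, where 8.88% of all tested genes fell and 10.2% rose. Immune markers summed to at most 0.259 CPM in CDK12KO and 2.35 CPM in VEC, and basal markers to at most 1.76 CPM in CDK12KO and 0.824 CPM in VEC. Neuroendocrine markers summed to 3.26 to 6.86 CPM in CDK12KO and 2.47 to 11.8 CPM in VEC. The highest VEC sums of neuroendocrine and immune markers came from VEC1, where CHGA had 7.32 CPM and LYZ 2.25 CPM. In the other VEC libraries CHGA had at most 0.168 CPM and LYZ at most 0.110 CPM, and both had 0 in CDK12KO. Fibroblast markers summed to 21.1 to 28.5 and 20.8 to 22.3 CPM in CDK12KO and VEC, and endothelial markers to 6.61 to 10.3 and 4.56 to 5.12 CPM in CDK12KO and VEC. COL1A2 had 0 CPM in every CDK12KO library and 1.13, 1.12 and 0.549 CPM in VEC. It could enter the test only by being higher in VEC (edgeR adjusted p = 0.0743 with all libraries and 0.000704 without CDK12KO2). COL1A1, which made up most of the fibroblast sum, had 21.1, 27.7 and 28.4 CPM in CDK12KO. In VEC it had 19.5, 20.8 and 21.1 CPM (edgeR adjusted p = 0.249 with all libraries and 0.145 without CDK12KO2). The endothelial gene VWF had 6.61 to 10.3 CPM in CDK12KO and 4.20 to 5.12 CPM in VEC. It passed without CDK12KO2 (edgeR adjusted p = 0.0263) and not with all libraries (0.161). TP63, DCN, PECAM1 and CD3E, defining markers of basal, stromal, endothelial and T cells, had 0 counts in every library. The part of any marker difference in the results below was not tested.

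Promoters are shown for 3 of the genes, a prostate RNA that was lower in CDK12KO (PCA3), an RNA whose libraries were all higher there (DRAIC) and a ubiquitous RNA for which no difference was detected (MALAT1). They come from RefSeq (GRCh38.p14), in a table used here that matched 4 of the 10 genes, and each runs 5′ to 3′ along the gene's strand from 250 bases before the start site to 50 after it. Capitals mark matches, on either strand, to the androgen response half-site AGAACA, the forkhead motif TGTTTAC, the E-box CACGTG, the TATA box TATAAA and the CCAAT box CCAAT, and to the full palindromic androgen response element, which contains the half-site.
PCA3, chr9:76764186-76764485, plus strand: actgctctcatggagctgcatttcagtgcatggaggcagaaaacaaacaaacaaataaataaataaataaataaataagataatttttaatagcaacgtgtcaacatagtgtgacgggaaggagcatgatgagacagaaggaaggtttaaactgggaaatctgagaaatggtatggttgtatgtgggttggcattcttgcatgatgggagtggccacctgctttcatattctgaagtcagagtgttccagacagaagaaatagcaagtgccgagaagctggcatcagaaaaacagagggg
DRAIC, chr15:69561470-69561769, plus strand: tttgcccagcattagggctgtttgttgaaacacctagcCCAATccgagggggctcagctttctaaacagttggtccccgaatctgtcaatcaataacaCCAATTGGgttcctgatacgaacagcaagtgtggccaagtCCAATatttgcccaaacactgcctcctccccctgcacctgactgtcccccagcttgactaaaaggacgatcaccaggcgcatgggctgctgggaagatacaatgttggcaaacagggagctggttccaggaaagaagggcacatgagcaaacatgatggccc
MALAT1, chr11:65498795-65499094, plus strand, the downstream of 2 listed starts: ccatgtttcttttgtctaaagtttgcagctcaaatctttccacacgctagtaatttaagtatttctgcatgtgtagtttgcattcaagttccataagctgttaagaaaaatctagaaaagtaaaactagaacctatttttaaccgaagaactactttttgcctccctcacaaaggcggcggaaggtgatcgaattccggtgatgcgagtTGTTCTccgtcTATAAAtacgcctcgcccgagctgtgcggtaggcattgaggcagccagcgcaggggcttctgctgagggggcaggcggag
The PCA3 window held 0 matches to any of these motifs. DRAIC held 4 matches to CCAAT, a pair of them overlapping on opposite strands, and 0 to the others. MALAT1 held TATAAA 30 bases before the downstream start and 1 half-site beside it on the opposite strand. The window of its upstream start, which is not shown, held 0 matches to any of the motifs. Of 35116 promoters of this length, 34.6% held CCAAT, 14.8% the half-site, 11.5% TATAAA, 7.26% CACGTG, 3.42% TGTTTAC and 0.00285% the full element. A match is only a description of these letters.

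SCHLAP1, PCA3 and ARLNC1 were lower in CDK12KO, by the comparison without CDK12KO2. SCHLAP1, an RNA of aggressive prostate cancers reported to oppose the SWI/SNF chromatin remodeler, averaged 0.349 ± 0.108 CPM in CDK12KO and 1.79 ± 0.284 CPM in VEC (SD, n = 3 each). ARLNC1, an androgen-induced RNA, was counted 3 times over the CDK12KO libraries and 44 times over the VEC libraries. PCA3, the prostate-specific RNA behind a urine test for prostate cancer, averaged 4.16 ± 0.672 CPM in CDK12KO and 8.37 ± 1.55 CPM in VEC. DRAIC was higher in every CDK12KO library without passing the test, and for PCAT1, PVT1, NEAT1 and MALAT1 the groups overlapped.

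Of the 10 genes, 8 passed the filter on low counts and were tested, and PCGEM1 and PCAT14 were at 0. With all 6 libraries, edgeR's quasi-likelihood test called 0 of the 8 at an adjusted p under 0.05, DESeq2 called 3 and limma-voom 0, and before adjustment 4 had an edgeR p under 0.05. The same edgeR test called 0.596% of all 15783 tested genes (0.418% higher and 0.177% lower in CDK12KO) and 0.196% of 2036 tested long noncoding genes, each of them higher. Without CDK12KO2, 3 of the 8 fell and 0 rose. In that fit 19.1% of all 16339 tested genes were called, 10.2% higher and 8.88% lower in CDK12KO, and 7.19% of 2252 long noncoding genes, 3.64% higher and 3.55% lower. SCHLAP1 and ARLNC1 passed the filter only through the VEC libraries, so they had to be lower in CDK12KO, and they weigh on any count or median over the 8. The median log2 fold change of the other 6, which were at or above the filter level in every library, was 0.00 with all libraries and -0.15 without CDK12KO2, against 0.00 and -0.01 over all tested genes and 0.11 and -0.01 over long noncoding genes. With SCHLAP1 and ARLNC1 included it was -0.30 in both fits. The CPM ranges did not overlap for 3 genes that were lower and 1 that was higher in CDK12KO, where 39.4% of all tested genes had groups apart, 19% lower and 20.4% higher in CDK12KO.

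**Figure D1:**
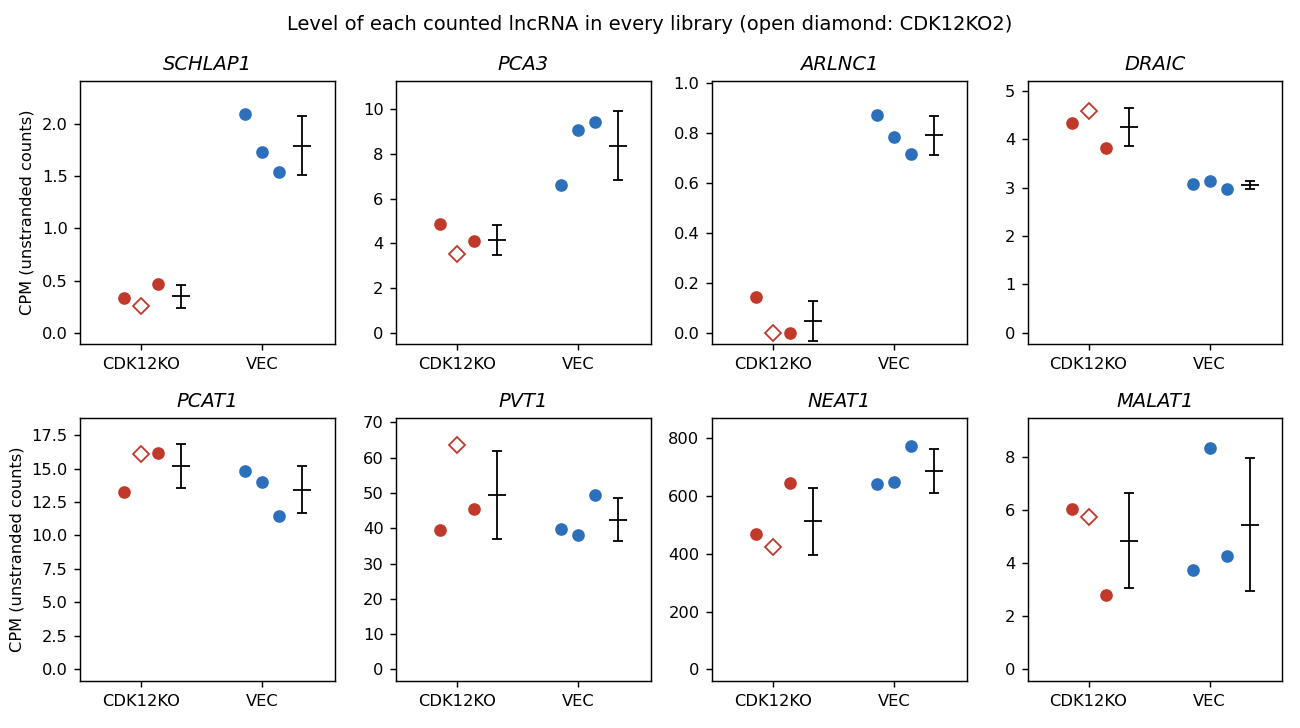
Level of the 8 counted long noncoding RNAs in every library, in CPM from unstranded counts, with the mean and SD of each group (n = 3) in black and CDK12KO2 as an open diamond. SCHLAP1, PCA3 and ARLNC1 lie lower in all 3 CDK12KO libraries than in all 3 VEC libraries, DRAIC lies higher, and the other 4 overlap.

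SCHLAP1 (ENSG00000281131.1, chromosome 2, 180692104 to 180916939, plus strand, GRCh38 by GENCODE 29) had 0.331, 0.252 and 0.465 CPM in CDK12KO1, CDK12KO2 and CDK12KO3 and 2.10, 1.74 and 1.54 CPM in VEC1, VEC2 and VEC3. These are 7, 4 and 9 reads in CDK12KO against 41, 31 and 28 in VEC. Every CDK12KO library lay below every VEC library. The log2 fold change was -2.33 ± 0.37 (SE) with all libraries, with an edgeR adjusted p of 0.0512, just over the threshold. Without CDK12KO2 it was -2.17 ± 0.46, and SCHLAP1 fell (edgeR adjusted p = 0.00242). Over the 11 alternatives to that fit the adjusted p was at most 0.0374, a value that rests on CDK12KO3 as the lone CDK12KO library. SCHLAP1 was under the filter level in every CDK12KO library, so these p-values are those of a gene that could enter the test only by being higher in VEC.

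ARLNC1 (ENSG00000260896.6, chromosome 16, 80828735 to 80892595, minus strand) had 3, 0 and 0 reads in CDK12KO1, CDK12KO2 and CDK12KO3 and 17, 14 and 13 reads in VEC1, VEC2 and VEC3. At this depth a count of 0 allows up to 0.139 CPM in CDK12KO2 and 0.164 CPM in CDK12KO3, on unscaled library sizes. The VEC libraries had 0.714 to 0.87 CPM on effective sizes. On that scale the limit of CDK12KO2, whose scaling factor was 0.737, is higher than 0.139 CPM. The ratio of CDK12KO to VEC over summed reads was 0.0672, with a 95% exact interval of 0.0134 to 0.21 that covers counting error only. The edgeR log2 fold change was -3.75 ± 0.82 with all libraries (adjusted p = 0.113) and -3.32 ± 0.84 without CDK12KO2 (adjusted p = 0.00891). ARLNC1 was under the filter level in every CDK12KO library, so it could enter the test only by being higher in VEC. The call without CDK12KO2 ended when CDK12KO3 was left out as well (log2 fold change -2.43, adjusted p = 0.160). Without CDK12KO1, the only CDK12KO library with a read, the fitted value was -6.86 over the other 5 libraries (adjusted p = 0.131) and -6.90 when CDK12KO2 was left out too (adjusted p = 0.0224), values that depend on the prior count and bound nothing.

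PCA3 (ENSG00000225937.3, chromosome 9, 76691980 to 76863307, plus strand) had 4.86, 3.52 and 4.09 CPM in CDK12KO1, CDK12KO2 and CDK12KO3 and 6.60, 9.07 and 9.45 CPM in VEC1, VEC2 and VEC3. All CDK12KO libraries were below all VEC libraries. Its log2 fold change was -1.01 ± 0.22 with all libraries (edgeR adjusted p = 0.115) and -0.90 ± 0.20 without CDK12KO2 (edgeR adjusted p = 0.00357). The call without CDK12KO2 ended when CDK12KO3 was also left out (-0.78, adjusted p = 0.0735).

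PCA3 lies within PRUNE2 on the opposite strand, and PRUNE2 was lower too. PRUNE2, reported as a tumour suppressor whose RNA PCA3 can pair with, had 292.0, 161.7 and 269.1 CPM in CDK12KO1, CDK12KO2 and CDK12KO3 and 468.9, 374.6 and 485.5 CPM in VEC1, VEC2 and VEC3. The groups did not overlap. It fell without CDK12KO2 (log2 -0.67 ± 0.09, edgeR adjusted p = 4.81e-05), and its log2 fold change was -0.88 ± 0.25 with all libraries (edgeR adjusted p = 0.168). PCA3 reads were 1.67%, 2.18% and 1.52% of PRUNE2 reads in the CDK12KO libraries and 1.41%, 2.42% and 1.95% in the VEC libraries. These ranges overlapped. On the summed reads of the 2 stranded columns, which keep reads shared with the other strand, PCA3 was at 6.38%, 2.89% and 6.64% of PRUNE2 in the CDK12KO libraries and 10.5%, 8.64% and 10.9% in the VEC libraries, and the ranges did not overlap. Whether PCA3 shifted relative to PRUNE2 thus depended on the counting. Without strand, reads in shared bases cannot be given to either gene, and their exons share 1060 bases in GENCODE 29.

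**Figure D2:**
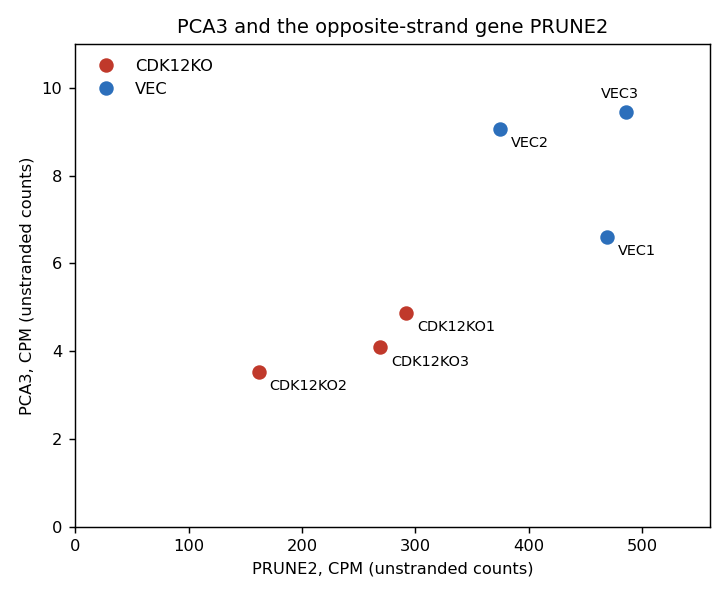
PCA3 against PRUNE2 in each library, both in CPM from unstranded counts, on axes that start at 0. The 3 CDK12KO libraries lie at 3.52 to 4.86 CPM of PCA3 and 161.7 to 292.0 CPM of PRUNE2, below the VEC libraries on both axes.

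DRAIC, an RNA known to be low in androgen-independent cells and to restrain NF-kB signalling, had 4.34, 4.59 and 3.83 CPM in CDK12KO1, CDK12KO2 and CDK12KO3 and 3.07, 3.14 and 2.97 CPM in VEC1, VEC2 and VEC3. Every CDK12KO library lay above the VEC libraries, which differed among themselves by little. The log2 fold change was 0.47 ± 0.20 with all libraries (edgeR adjusted p = 0.228) and 0.41 ± 0.23 without CDK12KO2 (edgeR adjusted p = 0.222). DRAIC (ENSG00000245750.11, chromosome 15, 69463026 to 69843120, plus strand) had 54 to 92 reads per library, and it passed in none of the 23 alternatives run on either fit.

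PCAT1, which promotes proliferation and is reported to lower BRCA2, had 13.3, 16.1 and 16.1 CPM in CDK12KO1, CDK12KO2 and CDK12KO3 and 14.8, 14 and 11.5 CPM in VEC1, VEC2 and VEC3, and the groups overlapped. Its log2 fold change was 0.18 ± 0.17 (edgeR adjusted p = 0.502), and 0.12 ± 0.14 without CDK12KO2 (edgeR adjusted p = 0.610). PCAT1 (ENSG00000253438.5, chromosome 8, 126556323 to 127419050, plus strand) shares exonic bases with LRATD2 on the opposite strand. When reads on both strands were kept its log2 fold change turned to -0.41 ± 0.17 (edgeR adjusted p = 0.239), so its direction depended on the counting.

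PVT1 (ENSG00000249859.14, chromosome 8, 127794533 to 128101253, plus strand), which lies beside MYC and hosts several microRNAs, had 39.6, 63.5 and 45.4 CPM in CDK12KO1, CDK12KO2 and CDK12KO3 and 39.8, 38.1 and 49.5 CPM in VEC1, VEC2 and VEC3. CDK12KO2 alone lay above the VEC range. The log2 fold change was 0.22 ± 0.20 with all libraries (edgeR adjusted p = 0.494) and -0.01 ± 0.11 without CDK12KO2 (edgeR adjusted p = 0.976). MYC had 176.4, 122.8 and 181.7 CPM in CDK12KO1, CDK12KO2 and CDK12KO3 and 172.5, 166.2 and 173.3 CPM in VEC1, VEC2 and VEC3. PVT1 reads were thus 51.7% of MYC reads in CDK12KO2, against 22.4% and 25.0% in the other CDK12KO libraries and 22.9% to 28.5% in VEC.

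NEAT1 (ENSG00000245532.11, chromosome 11, 65422774 to 65445540, plus strand), the RNA on which paraspeckles assemble, had 467.3, 424.1 and 642.4 CPM in CDK12KO1, CDK12KO2 and CDK12KO3 and 638.9, 646.2 and 771.5 CPM in VEC1, VEC2 and VEC3. CDK12KO1 and CDK12KO2 lay below all VEC libraries, while CDK12KO3 lay within their range. The log2 fold change was -0.42 ± 0.21 with all libraries (edgeR adjusted p = 0.260) and -0.31 ± 0.14 without CDK12KO2 (edgeR adjusted p = 0.159). With no filter on low counts NEAT1 passed without CDK12KO2 (-0.30, edgeR adjusted p = 0.00380). With CDK12KO1 as the only CDK12KO library the value was -0.56 and passed (edgeR adjusted p = 0.00257), and with CDK12KO3 as the only one it was -0.11 (edgeR adjusted p = 0.630), where the lone library is assumed to vary like the others.

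Paraspeckle proteins gave few calls. Over all libraries edgeR called 0 of the 21 measured genes, as did DESeq2 and limma-voom, 1 had a p under 0.05 before adjustment, and their log2 fold changes had a median of -0.04. Without CDK12KO2, 1 fell and 0 rose. It was PSPC1, a core paraspeckle protein, at 37.6 ± 7.26 CPM in CDK12KO and 49.6 ± 1.87 CPM in VEC (SD, n = 3 each; log2 -0.25 without CDK12KO2, edgeR adjusted p = 0.0451). AKAP8L, at 0.27, and SMARCA4, at -0.15, were next in that fit (edgeR adjusted p = 0.120 and 0.124). FRMD8, a neighbour of NEAT1 and MALAT1, stood at 0.00 in log2 fold change over all libraries (adjusted p = 0.985 by edgeR).

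MALAT1 was nearly lost from the unstranded counts. MALAT1 (ENSG00000251562.10, chromosome 11, 65497688 to 65506516, plus strand), which accumulates in nuclear speckles with splicing factors, had 128, 91 and 54 unstranded reads in CDK12KO1, CDK12KO2 and CDK12KO3 and 73, 149 and 78 in VEC1, VEC2 and VEC3. The same files gave 7605, 5666 and 6046 reads in CDK12KO and 5371, 6150 and 7325 reads in VEC when the 2 stranded columns were summed, which keeps reads that overlap a gene on the other strand. The unstranded column thus kept 0.893% to 1.68% of them in CDK12KO and 1.07% to 2.42% in VEC. TALAM1, an antisense RNA whose RefSeq locus covers 82.1% of the MALAT1 locus, showed the same pattern, with 3 to 17 unstranded reads in CDK12KO and 4 to 22 in VEC, against 6466 to 8897 and 6193 to 8290 summed reads in CDK12KO and VEC. In libraries without strand the summed reads of this pair are largely the same reads and cannot be split between them.

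On the summed reads MALAT1 had 302.5, 294.9 and 264.5 CPM in CDK12KO1, CDK12KO2 and CDK12KO3 and 233.7, 293.6 and 342.2 CPM in VEC1, VEC2 and VEC3. The CDK12KO libraries all lay inside the VEC range. The log2 fold change was -0.01 ± 0.17 on summed reads (edgeR adjusted p = 0.966) and -0.17 ± 0.41 on unstranded reads (edgeR adjusted p = 0.803). Without CDK12KO2 the values were -0.04 ± 0.17 and -0.29 ± 0.37 (edgeR adjusted p = 0.909 and 0.645).

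**Figure D3:**
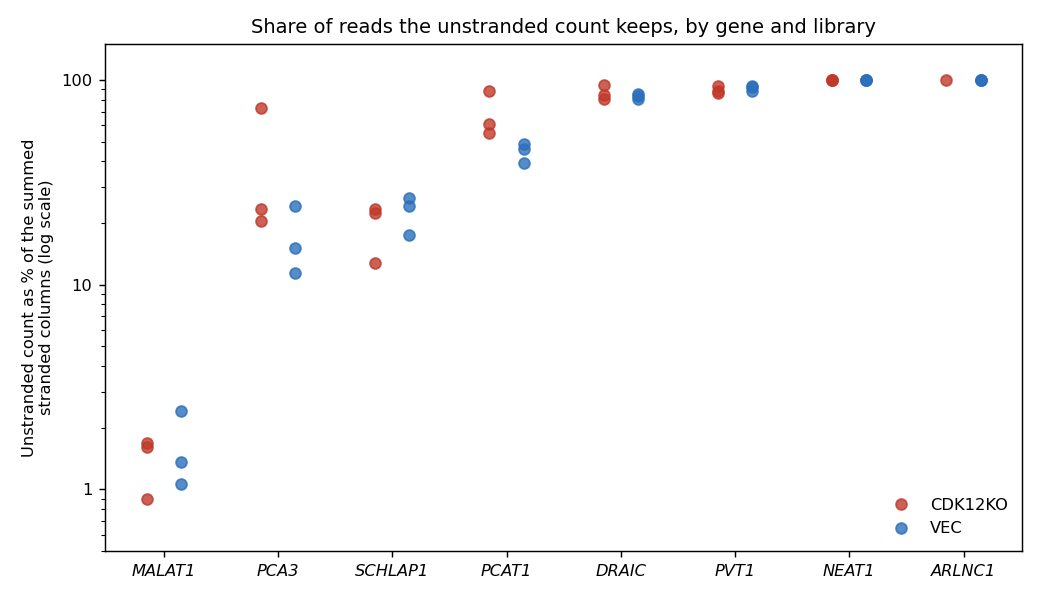
Unstranded count of each gene as a percent of its 2 stranded columns summed, per library, on a log axis, with CDK12KO in red to the left of VEC in blue. MALAT1 lies at 0.893% to 2.42%, PCA3 and SCHLAP1 mostly under 30% (PCA3 in CDK12KO2 at 72.7%), and NEAT1 and ARLNC1 at 100%. ARLNC1 has no point for CDK12KO2 and CDK12KO3, which had 0 reads.

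The counting also touched the RNAs that were lower. SCHLAP1 kept 12.7% to 23.5% of its summed reads in CDK12KO and 17.4% to 26.6% in VEC, PCA3 kept 20.5% to 72.7% in CDK12KO and 11.4% to 24.4% in VEC, while ARLNC1 and NEAT1 kept all of them. On summed reads SCHLAP1 had 2.19, 0.885 and 1.75 CPM in CDK12KO and 6.70, 6.11 and 7.52 CPM in VEC. Without CDK12KO2 the log2 fold changes on summed reads were -1.78 ± 0.22 for SCHLAP1, -1.38 ± 0.22 for PCA3 and -3.33 ± 0.85 for ARLNC1 (edgeR adjusted p = 3.11e-06, 0.0059 and 0.00668). SCHLAP1 and PCA3 fell under both ways of counting without CDK12KO2. So did ARLNC1, for which both ways count the same reads, so that their agreement was fixed in advance. None of the 3 passed on either with all 6 libraries. For PCA3 and SCHLAP1 the summed reads include those of the opposite-strand genes PRUNE2 and ENSG00000225258.

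**Figure D4:**
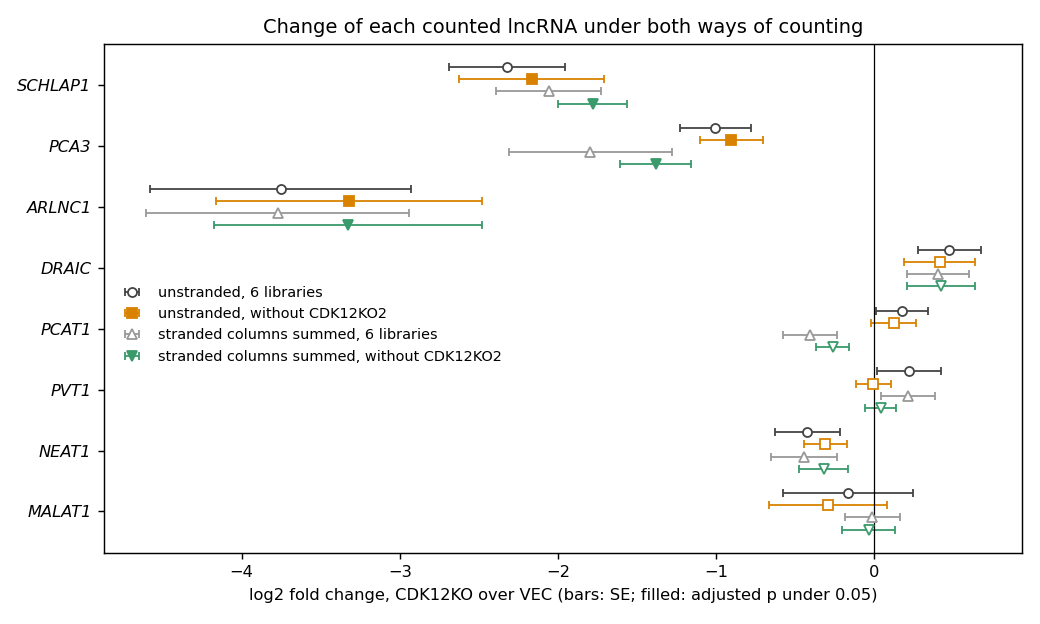
Log2 fold change of CDK12KO over VEC for each gene with its SE, by unstranded or summed stranded reads and with or without CDK12KO2. Filled symbols passed an edgeR adjusted p of 0.05. SCHLAP1, PCA3 and ARLNC1 are filled only without CDK12KO2, and PCAT1 lies on opposite sides of 0 by the way of counting.

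PCGEM1 (ENSG00000227418.6, chromosome 2, 192749845 to 192776899, plus strand), an androgen-regulated RNA, and PCAT14 (ENSG00000280623.1, chromosome 22, 23536881 to 23547797, plus strand), an RNA of retroviral origin, were listed at 0 in all 3 count columns of all 6 libraries. A count of 0 allows up to 0.139 to 0.164 CPM per library in CDK12KO and 0.165 to 0.181 CPM in VEC, on unscaled library sizes. The PCAT14 locus lies wholly inside another RefSeq gene, LOC124900476, while the PCGEM1 locus shares 1.0% of its length with the RefSeq pseudogene RPS17P8. Reads shared by overlapping genes are not counted, and the part of such overlaps in these zeros was not tested. The annotation behind the counts is not given in the sources used here, so these zeros bound the counted reads and not the RNA itself.

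Per kilobase of exon, on the scale of summed stranded reads, the levels ran in the following order. MALAT1 stood at 30.0 to 34.3 CPM per kb in CDK12KO and 26.5 to 38.8 in VEC, and NEAT1 at 15.4 to 23.9 in CDK12KO and 23.9 to 28.8 in VEC. Their ranges overlapped in VEC and not in CDK12KO. The summed reads of MALAT1 cannot be split from those of TALAM1, so its place in this order is not that of MALAT1 alone. PVT1 followed at 7.02 to 10.2 CPM per kb in CDK12KO and 6.69 to 8.23 in VEC. SCHLAP1, PCA3 and PCAT1 could not be ordered in CDK12KO, at 0.616 to 1.52, 0.283 to 1.24 and 0.893 to 1.32 CPM per kb. In VEC their summed reads stood apart at 4.26 to 5.24, 2.24 to 3.74 and 1.45 to 1.63. Of these VEC reads the unstranded column kept 17.4% to 26.6% for SCHLAP1, 11.4% to 24.4% for PCA3 and 39.5% to 48.9% for PCAT1. The rest cannot be split from genes on the other strand, so this order is not that of these RNAs alone. Unstranded counts gave another order. MALAT1 was then at 0.316 to 0.684 CPM per kb in CDK12KO and 0.423 to 0.945 in VEC, below NEAT1 and PVT1. There PCAT1, at 0.787 to 0.958 CPM per kb in CDK12KO and 0.682 to 0.878 in VEC, lay above PCA3, at 0.249 to 0.343 in CDK12KO and 0.466 to 0.667 in VEC. SCHLAP1 was at 0.175 to 0.324 CPM per kb in CDK12KO, below PCAT1, and at 1.07 to 1.46 in VEC, above both. On summed reads DRAIC was at 0.209 to 0.246 CPM per kb in CDK12KO and 0.159 to 0.174 in VEC. ARLNC1 on summed reads was at 0 to 0.047 in CDK12KO and 0.239 to 0.292 in VEC. Exon lengths came from GENCODE 29, which need not be the gene models used for counting.

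Among 20 tested regulators and partners of these RNAs, edgeR called 0 over all libraries, DESeq2 2 and limma-voom 1, while 6 had a p under 0.05 before adjustment, and the median was -0.05 in log2 fold change. Without CDK12KO2, 5 fell and 1 rose, where 8.88% of all tested genes fell and 10.2% rose. FOXA1, a forkhead factor that opens chromatin, was at 235.3 ± 57.0 CPM in CDK12KO and 344.6 ± 26.1 CPM in VEC (SD, n = 3 each) and fell by 0.37 in log2 units in that fit (edgeR adjusted p = 0.00136, and 0.214 with all libraries). PRUNE2, with the values given beside PCA3, was another of the 5.

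Of 18 tested nuclear speckle proteins, edgeR, DESeq2 and limma-voom each called 0 over all libraries, 0 had an edgeR p under 0.05 before adjustment, and the median log2 fold change was -0.13. Without CDK12KO2, 4 of the 18 were called, near the 19.1% of all tested genes called in that fit. Of these 2 rose and 2 fell, the scaffold proteins SRRM2 (log2 -0.28, edgeR adjusted p = 0.00600) and SON (-0.28, edgeR adjusted p = 0.0245) among those that fell and the kinase CLK1 (0.31, edgeR adjusted p = 0.0452) among those that rose. Of 10 tested enzymes of the RNase P and tRNase Z machinery that trims the ends of MALAT1 and NEAT1, edgeR, DESeq2 and limma-voom each called 0 over all libraries, 4 had an edgeR p under 0.05 before adjustment, and the median was 0.41. In the fit without CDK12KO2, 3 rose and 0 fell, where 10.2% of all tested genes rose and 8.88% fell, with a median of 0.20. They were RPP30 (0.35), POP5 (0.27) and RPP38 (0.40), all subunits of RNase P (edgeR adjusted p = 0.00671, 0.0161 and 0.0470).

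PRUNE2, GCNT1, UBE2E3, CDYL2 and CMC2, protein-coding neighbours of PCA3, SCHLAP1 and ARLNC1, fell without CDK12KO2, and CWC22 did not pass. Neighbours were taken by position as the genes that overlap each RNA and the nearest on each side, at any distance. Of 16 tested around all the RNAs, edgeR called 0 over all libraries, DESeq2 4 and limma-voom 0, and 7 had an edgeR p under 0.05 before adjustment. Without CDK12KO2, 7 fell and 1 rose, where 8.88% of all genes fell. Beside PRUNE2, the glycosyltransferase gene GCNT1 on the left of PCA3 fell by 0.50 in log2 units (edgeR adjusted p = 0.00956), at 12.9 ± 2.53 CPM in CDK12KO and 20.2 ± 2.34 CPM in VEC. UBE2E3, a ubiquitin-conjugating enzyme gene 50309 bases from SCHLAP1, fell by 0.43 (edgeR adjusted p = 0.00936), at 20.7 ± 2.05 CPM in CDK12KO and 29.03 ± 2.14 CPM in VEC. CDYL2, a chromodomain gene 24406 bases from ARLNC1, fell by 0.54 (edgeR adjusted p = 0.000485). It was at 46.9 ± 4.51 CPM in CDK12KO and 70.8 ± 7.22 CPM in VEC. These changes and edgeR p-values are without CDK12KO2, while the CPM means and SD include it (n = 3 each).

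CWC22, the other neighbour of SCHLAP1, had a log2 fold change of -0.16 without CDK12KO2 (edgeR adjusted p = 0.456). CMC2, the other neighbour of ARLNC1, fell without CDK12KO2 (-0.27, edgeR adjusted p = 0.0166) but had a value of 0.22 with all libraries (edgeR adjusted p = 0.657). Around the RNAs that did not pass or were not tested, TRIB1 (-0.70) and SLC39A10 (-0.49) fell without CDK12KO2 (edgeR adjusted p = 0.00175 and 0.0110). They lie far off, TRIB1 1117918 bases from PCAT1 and SLC39A10 2799078 bases from PCGEM1, which was at 0. The ribosomal protein gene RPLP1 beside DRAIC rose (0.49) without CDK12KO2 (edgeR adjusted p = 2.70e-05). LRATD2, MYC, BCR, TLE3 and TMEFF2 had values of -0.07, 0.06, -0.19, -0.06 and 0.45 in that fit (edgeR adjusted p = 0.598, 0.539, 0.0790, 0.578 and 0.484).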

How the data were processed

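Bulk RNA was sequenced from 3 CDK12KO and 3 VEC libraries, grouped by the sample titles. Per the submitters' processing notes, FastQC, STAR and GRCh38 were used. Which versions and which gene annotation is not given in the sources used here. The deposited files hold whole-number read counts per gene, not normalised, in 1 unstranded and 2 stranded columns, after 4 summary rows that stayed out of library sizes and tests. The unstranded counts were the main measure. The stranded columns had nearly equal sums, with ratios of 1.02 to 1.04, so the libraries carry no strand and the 2 columns were summed as an alternative.

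Counts of all genes were fitted with edgeR 4.0.16 under R 4.3.3, with 6 libraries and with 5. Genes were filtered by filterByExpr, libraries scaled by TMM, and the robust quasi-likelihood test was run without a block. P-values were adjusted by Benjamini-Hochberg over all genes and called under 0.05. SE is the size of the log2 fold change divided by the square root of F. CPM use TMM-scaled library sizes, while the limits for counts of 0 use unscaled sizes. DESeq2 1.42.0, limma 3.58.1 (voom), DESeq2 size factors, no filter, a replicate block and leaving out each library were alternatives. The steps were tested on simulated counts. Names came from an identifier table (62672 of 62696 matched) and positions from GENCODE 29, which held 58269 of the identifiers. The members and lists were chosen with earlier results of these data known. Intervals and limits for counts of 0, set at 3 counts per library, cover counting error only. From each list the genes passing with 6 libraries were named, or else the 3 with the smallest adjusted p without CDK12KO2, and every tested neighbour; some of these are not reported here.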

Additional observations from a re-analysis of the deposited data

How the results depend on the processing

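The fit with all 6 libraries called 94 genes and 0 of the 8 tested RNAs. It called 363 genes and 2 RNAs (SCHLAP1 and ARLNC1) with no filter, 980 genes and 3 RNAs (with PCA3) in DESeq2, and 4 to 3123 genes and 0 to 3 RNAs when 1 library was left out, the highest values without CDK12KO2. Without CDK12KO2 it called 3123 genes and 3 RNAs, and 1134 to 4703 genes and 2 to 3 RNAs when a further library was left out. The 2 RNAs lost were PCA3 and ARLNC1, without CDK12KO3, where NEAT1 passed, as it also did with no filter and with the block.

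Directions changed for 3 RNAs that did not pass. PCAT1 was at -0.41 and, without CDK12KO2, at -0.26 on summed stranded reads, and at -0.0199 to 0.25 with a further library left out. MALAT1 ran from -0.38 to 0.27 with 1 library left out and from -0.97 to 0.15 without CDK12KO2 and 1 more. PVT1 ran from -0.0065 to 0.36 and from -0.10 to 0.12 in the same way, and without CDK12KO2 it was at 0.0047 with no filter and 0.0404 on summed reads. The cause was not tested.

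Same-numbered libraries shared only a number. Their deviations correlated at 0.135, 0.194 and 0.084, each library correlating best with its own number, a hint from the data and not from the design. With the replicate number as a block, 5 genes and 0 RNAs were called with all libraries, and 5540 genes and 4 RNAs without CDK12KO2, where NEAT1 was at -0.37 (edgeR adjusted p = 2.42e-18, with 1 residual degree of freedom) and MALAT1 at 0.0933. Depth limits SCHLAP1 and ARLNC1, with at most 41 and 17 unstranded reads per library.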

Other observations

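Other long noncoding RNAs known from cancer were mostly not called. Of 45 listed genes 41 were in the files and 23 were tested, with a median log2 fold change of 0.24. Over all libraries edgeR called 0, DESeq2 1 and limma-voom 0, and 8 had an edgeR p under 0.05 before adjustment. Without CDK12KO2, 2 rose and 3 fell, with a median of 0.09, where 19.1% of all tested genes and 7.19% of long noncoding genes were called. CRNDE, an RNA raised in many tumours, was at 26.5 ± 3.56 CPM in CDK12KO and 17.5 ± 1.07 CPM in VEC, and rose by 0.47 on the log2 scale without CDK12KO2 (edgeR adjusted p = 0.00560). DANCR, which is linked to dedifferentiation, was at 426.9 ± 154.7 CPM in CDK12KO and 283.2 ± 10.7 CPM in VEC, and rose by 0.25 in that fit (edgeR adjusted p = 0.00803). NORAD, an RNA that binds PUMILIO proteins, was at 157.1 ± 22.8 CPM in CDK12KO and 205.1 ± 13.1 CPM in VEC, and fell by 0.28 (edgeR adjusted p = 0.00930; SD over n = 3 each).

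Protein-coding genes with the closest pattern over the 6 libraries were sought among 9762 genes averaging 5 CPM or more, by the root mean square difference of log2 CPM from the VEC mean. The closest were ZNF827 (0.158) and CA13 (0.168) for PCA3, ZNF574 (0.069) and CFAP20 (0.077) for PCAT1, PIF1 (0.088) and ZNF701 (0.094) for NEAT1, and EIF1AD (0.066) and NDUFAF5 (0.073) for PVT1. For MALAT1 on unstranded counts they were CATSPERG (0.224) and C10orf143 (0.29), both farther off than for any of the other 4 RNAs.

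The loss seen for MALAT1 in the unstranded column was shared by many long noncoding genes. Of 11893 genes with at least 600 summed stranded reads over the 6 libraries, 1127 (9.48%) kept under 10% of them in the unstranded column, and of the 1320 long noncoding genes among them 735 did. For a gene that overlaps a more abundant one on the other strand, the summed reads are largely those of its partner, so the share kept does not give its level.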
